A study of Homo sapiens with 6 samples.

Results

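The 8 genes described here form the cystine, glutathione and GPX4 defence against ferroptosis. They are SLC7A11, SLC3A2, GCLC, GCLM, GSS, CHAC1, GPX4 and AIFM2, taken by gene symbol out of 40173 genes, and the counts of all transcripts of a gene were summed. RNA came from HCT116, a human colon cancer cell line that the labels call wild type in genotype. The cells had been transduced with a lentivirus carrying the coding region of CYGB (cytoglobin) fused with FLAG, here the CYGB group, or with a MOCK virus, here the MOCK group, and both were selected with puromycin. Each group had 3 libraries, which the design text calls biological replicates. The sources used here do not say whether these came from separate transductions, so p-values measure the spread between these libraries. The promoter that drives CYGB is not given there either.

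Ferroptosis is a form of cell death driven by iron-dependent peroxidation of membrane lipids. Cells hold it back mainly by importing cystine, building glutathione from the cysteine it gives, and using glutathione to reduce lipid hydroperoxides to alcohols with the selenoprotein GPX4. A parallel route regenerates ubiquinol, a lipid-soluble radical trap, through AIFM2 (also called FSP1). The comparison of CYGB with MOCK libraries asked whether mRNA of these genes differed between the lines, in a study concerned with cytoglobin and sensitivity to ferroptosis.

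None of the 8 genes passed the threshold of the study's methods, set at an unadjusted p no higher than 0.01 and a ratio no lower than 2 or no higher than 0.5. Over all 19987 genes tested, 0.565% passed it, 0.28% with CYGB higher and 0.285% with CYGB lower. With edgeR's quasi-likelihood test, 0 of the 8 had an adjusted p under 0.05 (0.055% of all genes), and 1 of the 8, SLC3A2, had an unadjusted p under 0.05 (4.54% of all genes). DESeq2 and edgeR's exact test likewise gave 0 genes at an adjusted p under 0.05 and 1 at an unadjusted p under 0.05. The share of all genes was not taken for those tests. In 3 of the 8 genes, SLC3A2, GCLC and GSS, every CYGB library was above every MOCK library in counts scaled to library size. Such separation in that direction was found in 5.72% of all genes. The other way, 0 of the 8 was separated, against 5.31% of all genes. When counts were also divided by transcript length, GCLC and GSS overlapped between groups and SLC3A2 stayed separated. For 7 of the 8 genes, all but SLC3A2, the 95% interval of the change lay within a 2-fold change either way, as it did for 56% of all genes. The median log2 fold change of the 8 genes was 0.06, against -0.01 over all genes tested.

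**Figure D1:**
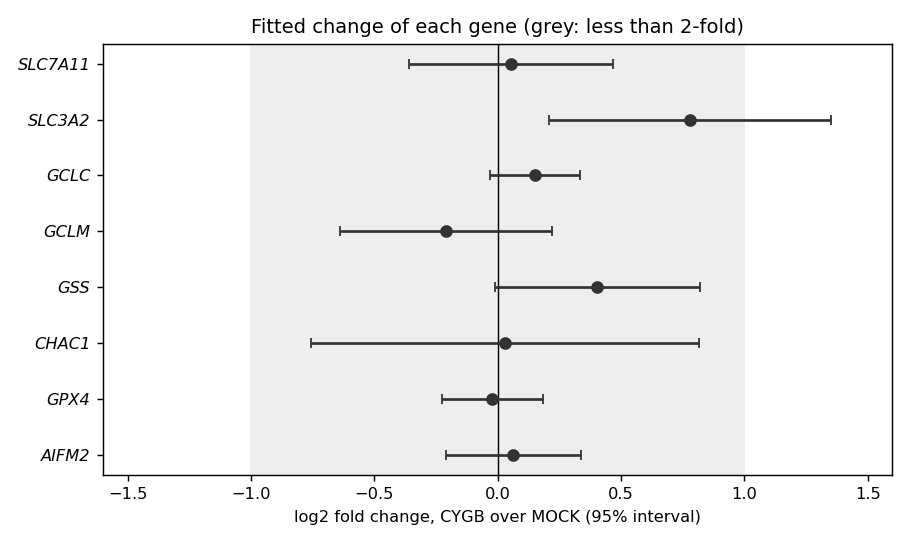
Fitted log2 fold change of each gene, CYGB over MOCK (x axis), with its 95% interval from edgeR's quasi-likelihood fit over 3 libraries per group; the grey band marks changes of less than 2-fold. Only the interval of SLC3A2, 0.21 to 1.35, leaves the band or lies wholly on one side of 0.

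CYGB, which checks the labels, was counted 10, 28 and 34 times in MOCK against 34935, 27681 and 32333 times in CYGB, in the order of replicates 1, 2 and 3, which is kept for all values below. Library totals, with transcripts without a gene included, lay between 58138393 and 66035266 counts. Of 12 markers of colon epithelium, 11 were in the table, and their summed level was 4234 to 4707 CPM (counts scaled to a common library size by TMM) in MOCK and 4317 to 4581 CPM in CYGB libraries. EPCAM, CDH1, KRT8, KRT18, KRT19, ELF3 and CDX2 were present, whereas KRT20, VIL1, CDH17 and LGALS4 were near 0. Of 12 markers of other cell types, the sum was 66.0 to 73.2 CPM in MOCK and 59.0 to 81.6 CPM in CYGB libraries, nearly all from COL1A1 and CD68, with PTPRC, CD3E, MS4A1 and PECAM1 near 0. Fewer cells of a type and less RNA per cell cannot be told apart in such bulk samples.

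Levels were compared between genes as TPM (counts divided by transcript length and scaled to a common sum per library). Averaged over the 6 libraries, SLC3A2 at 210 TPM and GPX4 at 196 TPM stood highest, and their ranges over libraries overlapped. GSS at 66.8 TPM and GCLC at 65.2 TPM followed, overlapping each other but not GPX4. AIFM2 was at 46.4 TPM and GCLM at 24.9 TPM, each apart from its neighbour above. SLC7A11 at 17.2 TPM overlapped GCLM, and CHAC1 at 14.5 TPM overlapped SLC7A11. The order of the means depended in part on which transcripts were counted. Over protein coding transcripts alone, GPX4 at 189 TPM stood above SLC3A2 at 182 TPM. GSS at 43.9 TPM ranked below GCLC (55.3 TPM) and AIFM2 (45.6 TPM). The ranges over libraries overlapped in this set, for GPX4 with SLC3A2 and among GSS, GCLC and AIFM2.

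**Figure D2:**
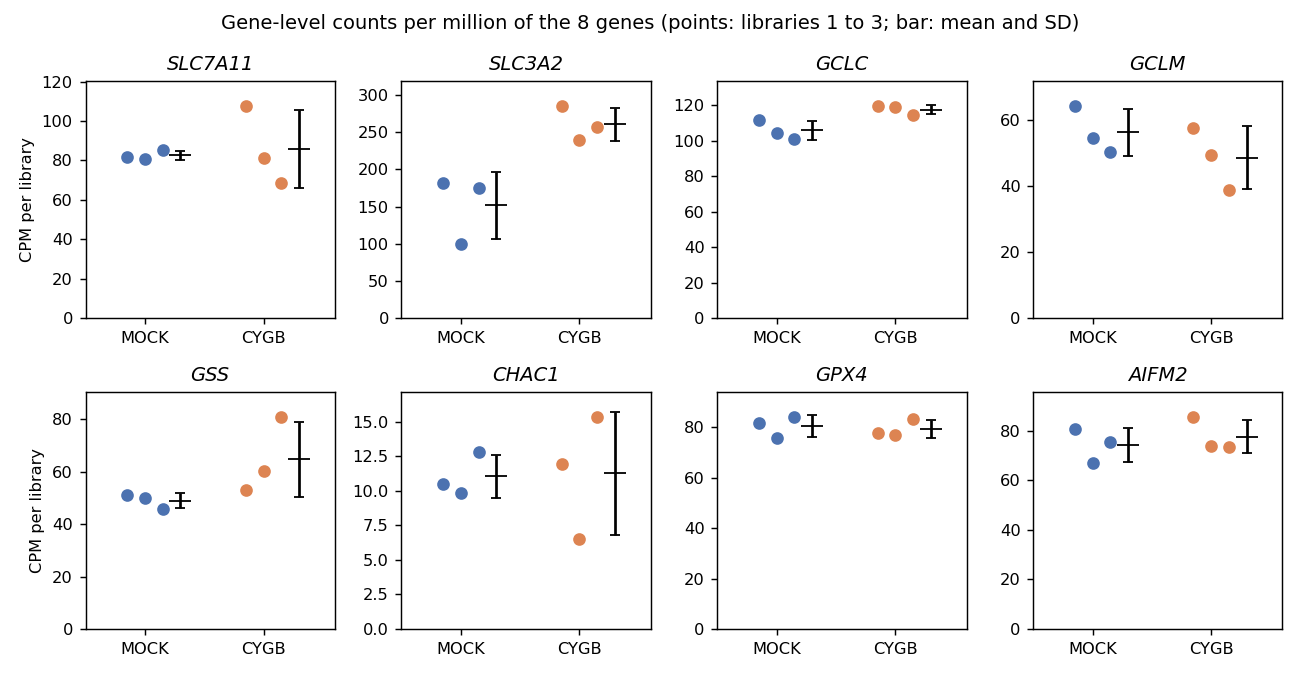
CPM of each gene in each library (points, in the order of replicates 1 to 3; MOCK blue, CYGB orange), with the group mean and SD in black; every y axis starts at 0. SLC3A2, GCLC and GSS have all 3 CYGB libraries above all 3 MOCK libraries, and the other genes overlap.

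Promoter sequence was read from RefSeq (GRCh38.p14) for 6 of the 8 genes, in 10 windows of 250 bases before an annotated start, and searched on both strands for 2 short motifs. SLC7A11 and GSS were not matched. The motifs were TGACNNNGC, the core of the antioxidant response element bound by NRF2, and TGATGNAA, the core of the C/EBP-ATF response element bound by ATF4. The antioxidant core was in 3 of the 10 windows, against 10.9% of 35116 promoters, and the C/EBP-ATF core in 1 of the 10, against 3.14% of promoters. No window held both. The matches are shown with 10 bases on either side, along the strand of the gene and with the motif in capitals, because they are all the matches found in these windows.
SLC3A2, chr11:62881652-62881680, plus strand, motif starting 37 bases before the third annotated start: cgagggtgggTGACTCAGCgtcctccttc
GCLM, chr1:93909446-93909474, minus strand, 34 bases before the start: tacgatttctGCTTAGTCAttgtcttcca
AIFM2, chr10:70132829-70132857, minus strand, 22 bases before the start: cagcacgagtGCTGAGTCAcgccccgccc
CHAC1, chr15:40953252-40953279, plus strand, 209 bases before the start: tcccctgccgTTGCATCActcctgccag
In GCLM, AIFM2 and CHAC1 the motif reads on the opposite strand. The AIFM2 and CHAC1 matches lie inside the first exon of GENCODE transcripts that begin further upstream than the RefSeq start. For AIFM2 these are ENST00000307864 and ENST00000613322, which held 80.7% and 17.4% of the gene's counts. A match is a description of these letters and not evidence of binding, and its bearing on the level of a gene was not tested.

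Cystine enters the cell through system xc-, in which SLC7A11 is the transporting light chain and SLC3A2 the heavy chain that carries it to the membrane. SLC7A11 (ENSG00000151012, on the minus strand of chromosome 4 from 138164097 to 138242349, GRCh38 as for all positions here) was counted 3851, 4279 and 4394 times in MOCK against 5427, 4121 and 3604 times in CYGB. CYGB replicate 1 was the highest of the 6 libraries and CYGB replicate 3 the lowest, with the MOCK libraries between them. The means were 82.6 ± 2.39 CPM in MOCK and 85.7 ± 19.8 CPM in CYGB (SD, n = 3), a log2 fold change of 0.05 (95% interval -0.36 to 0.47, adjusted p = 0.990 by edgeR's quasi-likelihood test, with all such p adjusted by Benjamini-Hochberg over every gene or transcript tested). Without CYGB replicate 1 the log2 fold change was -0.14, so its sign rests on that library. Nearly all counts of the gene, 99.9%, were assigned to 1 transcript, ENST00000280612. SLC7A11-AS1, on the opposite strand, had 39 to 64 counts per library.

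The 3 genes whose pattern over the 6 libraries was most like that of SLC7A11 were UTP23, MRPS7 and MRPL3. Their log2 levels, each centred on its own mean, differed from those of SLC7A11 by a root mean square of 0.02, 0.04 and 0.04, among 9946 genes compared. UTP23 acts in ribosome assembly, and MRPS7 and MRPL3 are proteins of the mitochondrial ribosome. All 3 were highest in CYGB replicate 1 and lowest in CYGB replicate 3, as SLC7A11 was, which follows from picking them by its pattern.

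SLC3A2 (ENSG00000168003, chromosome 11 from 62856102 to 62888875, plus strand) had the largest fitted change of the 8 genes. It was counted 8555, 5257 and 8993 times in MOCK against 14383, 12188 and 13510 times in CYGB. All 3 CYGB libraries were above all 3 MOCK libraries, and MOCK replicate 2 was well below both others of its group. The means were 152 ± 45.4 CPM in MOCK and 261 ± 22.6 CPM in CYGB (SD, n = 3). This gave a log2 fold change of 0.78 (standard error 0.23, 95% interval 0.21 to 1.35), which is 1.72-fold, with an unadjusted p of 0.0154 and an adjusted p of 0.963 by edgeR's test, so it did not pass. Without MOCK replicate 2 the log2 fold change was 0.55 (unadjusted p = 0.00333, adjusted p = 0.812 by edgeR), and the adjusted p ranged from 0.322 with DESeq2 to 1.00 over all alternatives.

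SLC3A2 has 3 starts annotated in RefSeq, and its counts were divided among them by transcripts that begin within 100 bases of each, with CPM scaled at the level of transcripts, a choice made after the data were seen. The first start held 67.8 ± 6.51% of the counts in MOCK and 72.4 ± 4.24% in CYGB (SD, n = 3). The 250 bases before it are shown because most SLC3A2 reads were assigned to transcripts from this start, and they hold neither motif.
SLC3A2 first start, chr11:62855859-62856108, plus strand: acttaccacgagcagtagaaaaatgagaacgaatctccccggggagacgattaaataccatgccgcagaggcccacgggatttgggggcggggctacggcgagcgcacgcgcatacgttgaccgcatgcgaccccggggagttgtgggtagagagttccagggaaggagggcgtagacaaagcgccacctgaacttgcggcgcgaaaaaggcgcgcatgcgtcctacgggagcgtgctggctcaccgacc
Transcripts from the first start had 135, 63.7 and 115 CPM in MOCK libraries and 217, 166 and 194 CPM in CYGB libraries, a ratio of means of 1.84. Those from the second start had 26.6, 24.3 and 47.7 CPM in MOCK and 50.1, 61.7 and 51.6 CPM in CYGB, a ratio of 1.66. Those from the third, the start with the antioxidant core before it, had 6.29, 6.33 and 7.04 CPM in MOCK and 11.6, 11.0 and 8.35 CPM in CYGB, a ratio of 1.57. The groups were separated at each of the 3 starts, with an exact two-sided permutation p of 0.1, the smallest that 3 against 3 can give. At the third start the separation rests on ENST00000537508, a processed transcript. It was counted 0, 68 and 0 times in MOCK against 229, 117 and 0 times in CYGB, and gave 4.57 of the 11.6 CPM of CYGB replicate 1. Without it that library would lie below MOCK replicate 3. Transcripts beginning elsewhere had a ratio of 0.903 and overlapped (exact permutation p = 0.8). These starts share exons, so reads in common parts were divided among them by the authors' counting.

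**Figure D3:**
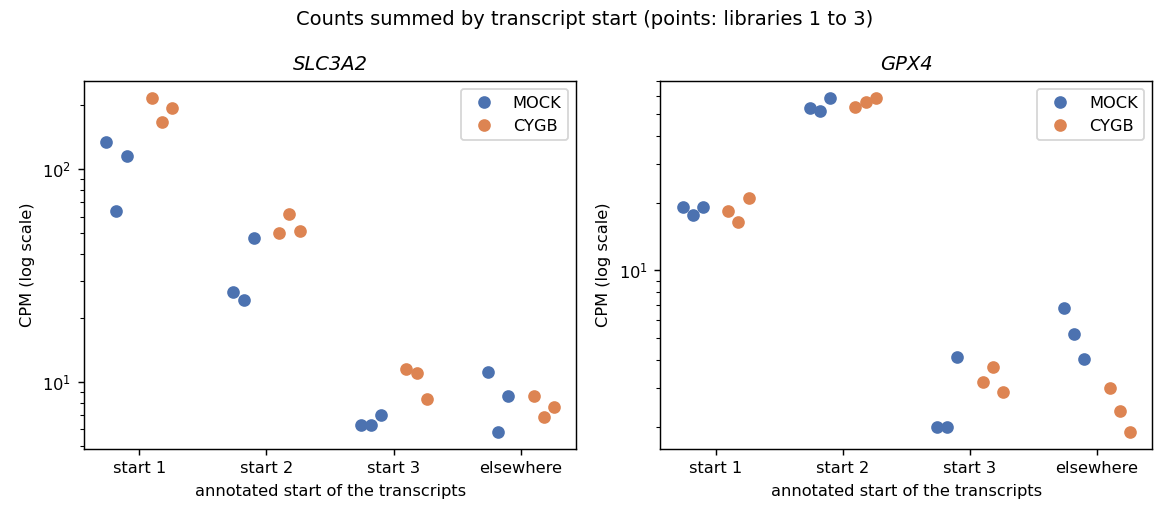
CPM of SLC3A2 (left) and GPX4 (right) summed over transcripts by annotated start, on a log scale, with 1 point per library (MOCK blue, CYGB orange). The CYGB points of SLC3A2 lie above the MOCK points at all 3 starts, while those of GPX4 overlap at its 3 starts and lie below MOCK for transcripts that begin elsewhere.

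Most SLC3A2 counts were assigned to ENST00000377890, counted 5178, 2047 and 4409 times in MOCK against 9385, 6859 and 8533 times in CYGB. Its log2 fold change was 1.06 (95% interval 0.10 to 2.03, unadjusted p = 0.0356 by edgeR, not past the threshold). ENST00000338663, from the second start, was counted 1275, 1276 and 2400 times in MOCK against 2509, 3062 and 2661 times in CYGB. It had a log2 fold change of 0.73 and passed the threshold without MOCK replicate 3, at 1.10 (adjusted p = 0.401 by edgeR). ENST00000377891, which also begins at the first start, was counted 685, 615 and 797 times in MOCK against 883, 995 and 817 times in CYGB, and it overlapped. ENST00000535296, another transcript of the first start, ran the other way, counted 491, 369 and 352 times in MOCK against 296, 179 and 216 times in CYGB (log2 fold change -0.82, unadjusted p = 0.0472 by edgeR).

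Because SLC7A11 works only as a partner of SLC3A2, the ratio of their TPM was taken in each library. It was 0.0916, 0.155 and 0.0982 in MOCK and 0.0744, 0.0675 and 0.0567 in CYGB libraries. Every CYGB library was lower, with means of 0.115 ± 0.0349 and 0.0662 ± 0.00892 (SD, n = 3; exact two-sided permutation p = 0.1, adjusted p = 0.2 over the 2 ratios tested). SLC3A2 also pairs with other amino acid transporters. Of 5 such light chains 4 were tested and none passed the threshold. SLC7A5, the main leucine transporter among them, had 869, 842 and 883 CPM in MOCK and 1058, 905 and 983 CPM in CYGB libraries, with a log2 fold change of 0.18. The groups of SLC7A5 did not overlap, yet it did not pass (adjusted p = 0.963 by edgeR).

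Glutathione is made in 2 steps. GCLC, the catalytic subunit, and GCLM, the modifier subunit, form the rate-limiting glutamate-cysteine ligase, and GSS adds glycine. GCLC (ENSG00000001084, chromosome 6 from 53497341 to 53616970, minus strand) was counted 5282, 5516 and 5197 times in MOCK against 6024, 6033 and 6012 times in CYGB. The groups did not overlap in CPM, but the step was small, from 106 ± 5.55 CPM to 117 ± 2.62 CPM (SD, n = 3). In TPM the groups overlapped. The fitted log2 change was 0.15 (95% interval -0.03 to 0.33, adjusted p = 0.963 by edgeR), and 0.03 when counts were scaled for transcript length. The main transcript, ENST00000229416, held 72.6 ± 10.4% of GCLC counts in MOCK and 78.1 ± 5.32% in CYGB (SD, n = 3; exact permutation p = 0.5). A retained-intron transcript, ENST00000515580, had 1348 counts in MOCK replicate 2 and 77 to 101 counts in the other libraries. ENST00000509541, a shorter coding transcript, had 457 to 1116 counts. AL033397.1, which overlaps GCLC on the same strand, had 3 to 13 counts. AL033397.2, which overlaps it on the opposite strand, had 3 to 23 counts, and since strand was not stated for the counting, reads of the pair cannot be told apart.

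GCLM (ENSG00000023909, chromosome 1 from 93885205 to 93909456, minus strand) was counted 3027, 2881 and 2583 times in MOCK against 2915, 2509 and 2038 times in CYGB. The groups overlapped, with 56.3 ± 7.11 CPM in MOCK and 48.6 ± 9.47 CPM in CYGB (SD, n = 3). Its log2 fold change was -0.21 (95% interval -0.64 to 0.22, adjusted p = 0.963 by edgeR), the lowest of the 8 genes. Between 66.2 and 88.2% of its counts were assigned to ENST00000370238 in each library, and the rest mainly to ENST00000615724, which was counted 1009, 327 and 838 times in MOCK against 543, 407 and 457 times in CYGB. The TPM ratio of GCLC to GCLM was 2.09, 2.89 and 2.32 in MOCK and 2.48, 2.92 and 3.39 in CYGB libraries. These ratios overlapped (exact two-sided permutation p = 0.2). The ratio of counts, without regard to length, was 1.74, 1.91 and 2.01 in MOCK and 2.07, 2.40 and 2.95 in CYGB libraries, which did not overlap (exact two-sided permutation p = 0.1).

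GSS (ENSG00000100983, chromosome 20 from 34928433 to 34956027, minus strand) was counted 2419, 2639 and 2352 times in MOCK against 2686, 3065 and 4246 times in CYGB. In CPM these were 48.9 ± 2.89 in MOCK and 64.8 ± 14.4 in CYGB (SD, n = 3). The groups were separated in CPM, although CYGB replicate 1 was close to the MOCK libraries and CYGB replicate 3 stood well above the rest. In TPM the groups overlapped. The log2 fold change was 0.40 (95% interval -0.01 to 0.82, unadjusted p = 0.0552, adjusted p = 0.963 by edgeR). Without CYGB replicate 3 it was 0.22, and with counts scaled for transcript length 0.25. The surplus of that library lay partly in ENST00000642498, counted 233, 254 and 237 times in MOCK against 112, 572 and 1330 times in CYGB. It had a log2 fold change of 1.45 and passed the threshold without CYGB replicate 1, at 1.96 (adjusted p = 0.581 by edgeR). The main transcript, ENST00000216951, was counted 1440, 1129 and 1336 times in MOCK against 1573, 1844 and 2204 times in CYGB, without overlap. Only 0.508% of its 150-base windows are absent from the other GSS transcripts. Further transcripts with a large share in some library were counted unevenly, from 0 to 402 times for ENST00000645408, 0 to 312 for ENST00000643443, 0 to 350 for ENST00000646405 and 0 to 237 for ENST00000646512.

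CHAC1 degrades glutathione in the cytosol and is a known target of ATF4. The gene (ENSG00000128965, chromosome 15 from 40952962 to 40956519, plus strand) was the lowest of the 8 in TPM, and its counts varied most among the CYGB libraries, with a coefficient of variation of 39.5% in CPM. It was counted 495, 520 and 660 times in MOCK against 605, 331 and 806 times in CYGB. The CYGB libraries held both the highest and the lowest value, with 11.0 ± 1.57 CPM in MOCK and 11.3 ± 4.46 CPM in CYGB (SD, n = 3). Its log2 fold change was 0.03 (95% interval -0.76 to 0.82, adjusted p = 0.998 by edgeR), the widest interval of the 8.

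Beneath this gene-level value the division of CHAC1 among transcripts shifted between libraries of 1 group. ENST00000617961 was counted 336, 360 and 449 times in MOCK against 21, 247 and 576 times in CYGB. It held 3.47% of the gene's counts in CYGB replicate 1 and 67.9 to 74.6% in the other 5 libraries. In CYGB replicate 1 the counts lay instead in ENST00000446533 (265 counts) and ENST00000617768 (272 counts, against 1 to 97 in the other libraries). None of the 150-base windows of these 3 transcripts is unique within the gene. From the lowest to the highest library the most abundant transcript ranged 26.6-fold and the whole gene 2.36-fold.

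ENST00000444189 of CHAC1, which begins upstream of the main transcript, was counted 0, 0 and 0 times in MOCK against 29, 49 and 12 times in CYGB. Against a floor of 3 counts, with libraries pooled, it was 29.6-fold higher in CYGB, a value that ignores the spread between libraries. It passed the threshold of the methods (unadjusted p = 0.00370 by edgeR) but not adjustment (adjusted p = 0.565). With DESeq2 its adjusted p was 0.000423, and with edgeR's exact test 8.96e-05. It made up 2.63% of CHAC1 counts. It no longer passed without CYGB replicate 1, where edgeR's quasi-likelihood fit over all transcripts gave an adjusted p of 0.897, or without CYGB replicate 2, where it gave 0.845, nor with the replicate number as a block (adjusted p = 0.995).

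GPX4 reduces phospholipid hydroperoxides inside membranes and is the last enzyme of the glutathione route. GPX4 (ENSG00000167468, chromosome 19 from 1103926 to 1106791, plus strand) had the narrowest range over the 6 libraries of the 8 genes. It was counted 3867, 4007 and 4327 times in MOCK against 3922, 3911 and 4376 times in CYGB. The groups overlapped almost wholly, with 80.6 ± 4.26 CPM in MOCK and 79.3 ± 3.49 CPM in CYGB (SD, n = 3). The log2 fold change was -0.02, and its 95% interval, -0.23 to 0.18, holds changes of up to 0.854-fold down and 1.13-fold up (adjusted p = 0.993 by edgeR). From the lowest to the highest library GPX4 ranged 1.11-fold.

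Its main transcript ENST00000611653 held 62.0 ± 1.98% of GPX4 counts in MOCK and 65.6 ± 2.22% in CYGB (SD, n = 3; exact two-sided permutation p = 0.2). ENST00000589115, counted 797, 815 and 845 times in MOCK against 789, 727 and 946 times in CYGB, was next. The 3 genes most like GPX4 over the 6 libraries were VASH1, NCS1 and ZYX, with a root mean square difference of 0.02, 0.03 and 0.03 in log2 level.

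One minor GPX4 transcript, ENST00000585362, was lower in CYGB. It begins in an intron of the main transcript, on chromosome 19 at 1104415, and was counted 188, 113 and 65 times in MOCK against 11, 12 and 9 times in CYGB. All 3 CYGB libraries were far below the lowest MOCK library. The log2 fold change was -3.52 (95% interval -4.87 to -2.20), past the threshold of the methods at an unadjusted p of 0.000739 by edgeR, while the adjusted p was 0.256. With DESeq2 the adjusted p was 4.3e-06, and with edgeR's exact test 0.000518. It made up 1.63% of GPX4 counts, and 35.4% of its 150-base windows are found in no other GPX4 transcript. All GPX4 transcripts beginning away from the 3 RefSeq starts, this one included, had 6.79, 5.22 and 4.02 CPM in MOCK and 2.98, 2.36 and 1.90 CPM in CYGB libraries. At the RefSeq starts themselves the ratios of means were 1.00, 1.04 and 1.20.

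Over all 8 genes, 59 transcripts were tested and 2 passed the threshold of the methods, the GPX4 and CHAC1 transcripts just given. That is 3.39%, against 1.02% of the 66609 transcripts tested (0.54% with CYGB higher and 0.482% with CYGB lower). Groups did not overlap in 14 of the 59 (23.7%), against 10.4% of all transcripts. By edgeR's quasi-likelihood test 0 of the 59 reached an adjusted p under 0.05, against 0.015% of all. Those 2 transcripts did so with DESeq2 and with edgeR's exact test, for which the share of all transcripts was not taken. An unadjusted p under 0.05 was reached by 5 of the 59 with the quasi-likelihood test, against 3.78% of all. The share of the most abundant transcript did not separate the groups in any of the 8 genes (exact two-sided permutation p of 0.2 or more, adjusted p of 0.8 or more over 8 tests).

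**Figure D4:**
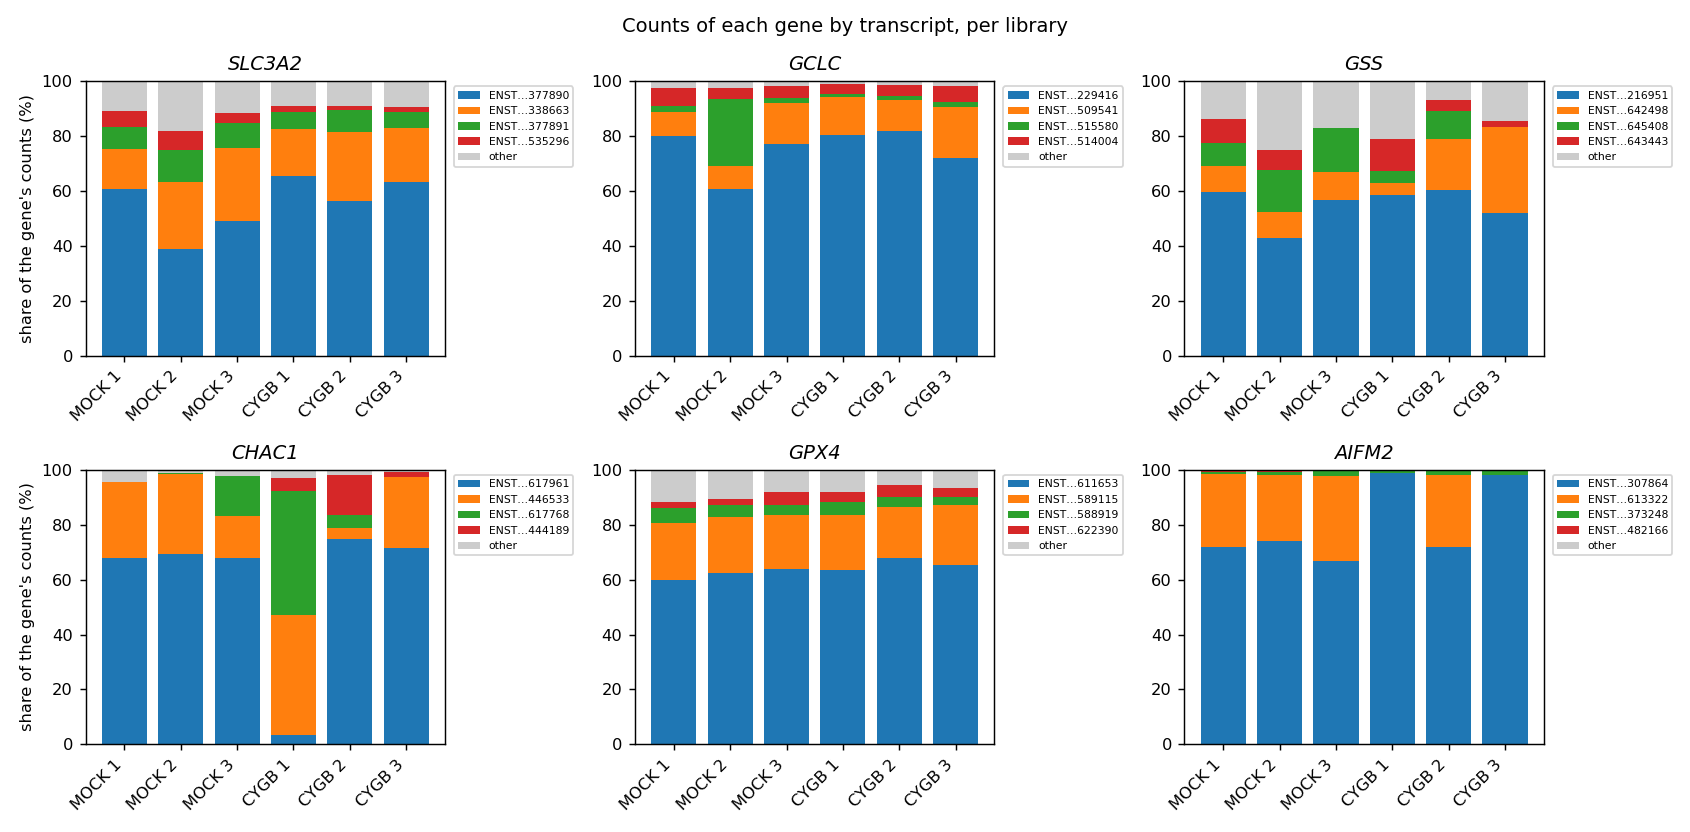
Share of a gene's counts (y axis, %) assigned to its 4 most abundant transcripts and to all others (grey) in each library, for 6 of the 8 genes. CHAC1 in CYGB replicate 1 and AIFM2 in CYGB replicates 1 and 3 are divided unlike the rest of the libraries.

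AIFM2 reduces ubiquinone at membranes with NADPH and works independently of glutathione. AIFM2 (ENSG00000042286, chromosome 10 from 70098223 to 70132934, minus strand) was counted 3810, 3534 and 3891 times in MOCK against 4322, 3762 and 3860 times in CYGB. The groups overlapped, with 74.4 ± 6.96 CPM in MOCK and 77.7 ± 6.81 CPM in CYGB (SD, n = 3). Its fitted log2 change was 0.06 (95% interval -0.21 to 0.34, adjusted p = 0.979 by edgeR). It turned to -0.01 without CYGB replicate 1 or without MOCK replicate 2. H2AFY2, a histone gene that overlaps AIFM2 on the opposite strand, had 2821 to 3788 counts per library, so the strand of the counting may bear on this gene too. The overlap was taken over whole gene spans, and its extent over the counted exons was not measured. The AIFM2 span reaches 70098223 only through ENST00000373248, which held 1.37% of the gene's counts.

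A pair of AIFM2 transcripts was counted very unevenly. ENST00000307864 was counted 2743, 2619 and 2595 times in MOCK against 4274, 2698 and 3782 times in CYGB, and ENST00000613322 was counted 1002, 841 and 1204 times in MOCK against 1, 986 and 1 times in CYGB. The transcripts are 3243 and 3247 bases long. They differ by 3 bases at the start of exon 2, ahead of the coding part, where the second begins at 70124100 and the first at 70124097, and by 1 base at the 3′ end. The junction of exons 1 and 2 is shown for each, with the 3 added bases in capitals, because these few letters are nearly all that separates the 2 rows.
ENST00000307864: gcgcggccgacagtgcctgatttgag
ENST00000613322: gcgcggccgacagCAGtgcctgatttgag
Of the 150-base windows of ENST00000613322, 4.78% are found in no other AIFM2 transcript. The groups of ENST00000613322 overlapped through CYGB replicate 2 (log2 fold change -1.61, unadjusted p = 0.497 by edgeR). Without that library the log2 fold change was -9.83, past the threshold, with an adjusted p of 0.0637 by edgeR. The part that the division of reads between near-identical rows had in these counts was not tested.

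Beyond the 8 genes, 141 genes of the wider pathway in 9 lists were examined, of which 129 were tested. One of the 129 (0.775%) passed the threshold of the methods, against 0.565% of all genes. By edgeR's quasi-likelihood test 0 had an adjusted p under 0.05 (0.055% of all genes). With DESeq2 and with edgeR's exact test 1 did, the same gene, and the share of all genes was not taken there. At an unadjusted p under 0.05 there were 7 of the 129 by the quasi-likelihood test, where 4.54% of all genes stood. Groups were separated with CYGB higher in 13 and lower in 7, together 15.5%, against 11% of all genes. The list medians lay between -0.04 and 0.11 on the log2 scale. Of the 18 NRF2 and ATF4 regulators, 0 passed in either direction, and likewise 0 of 10 genes of selenoprotein synthesis, 0 of 16 of iron supply and storage, and 0 of 23 enzymes that use or regenerate glutathione.

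The gene that passed was ACSL4, which loads polyunsaturated fatty acids into the membrane lipids that ferroptosis oxidises. It had 9.10, 9.82 and 8.20 CPM in MOCK and 30.7, 36.3 and 16.2 CPM in CYGB libraries. The log2 fold change was 1.62 (95% interval 0.87 to 2.37, unadjusted p = 0.00180, adjusted p = 0.844 by edgeR's quasi-likelihood test). The adjusted p of ACSL4 was 0.000780 by DESeq2 and 0.0141 by edgeR's exact test. With counts scaled for transcript length its log2 fold change was 1.02, just past the ratio of the threshold. Among genes of at least 10 CPM with separated groups, the next highest fitted changes were in MAFG, a partner of NRF2, at 0.63, COQ9, of ubiquinone synthesis, at 0.50, and FADS2, a fatty acid desaturase, at 0.37. COQ9 had 39.8, 12.4 and 36.9 CPM in MOCK and 39.8, 43.2 and 42.9 CPM in CYGB libraries, so its value rests on MOCK replicate 2. The lowest were EIF2AK1, a kinase upstream of ATF4, at -0.96, SAT1, a polyamine acetyltransferase, at -0.29, PTS, of tetrahydrobiopterin synthesis, at -0.27, and SLC7A8, a light-chain partner of SLC3A2, at -0.25. None of these other 7 genes passed the threshold, although EIF2AK1 did without CYGB replicate 3, at -1.56 (adjusted p = 0.290 by edgeR). Named after their values were seen, 4 genes with overlapping groups had fitted changes beyond 2-fold that did not pass. MAT2A, which makes S-adenosylmethionine, was at 1.82 and ATF3, a stress-induced transcription factor, at 1.17, and both passed without CYGB replicate 2, at 2.26 and 1.55. CEBPB, a transcription factor that pairs with ATF4, was at -1.41 and passed without MOCK replicate 3, at -1.84. ABCC2, an exporter of glutathione conjugates, was at -1.10 and passed without CYGB replicate 2, at -2.17. In these fits the adjusted p by edgeR was 0.932 for MAT2A, 0.264 for ATF3, 0.537 for CEBPB and 0.936 for ABCC2. None of the 4 passed with any other library left out.

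**Figure D5:**
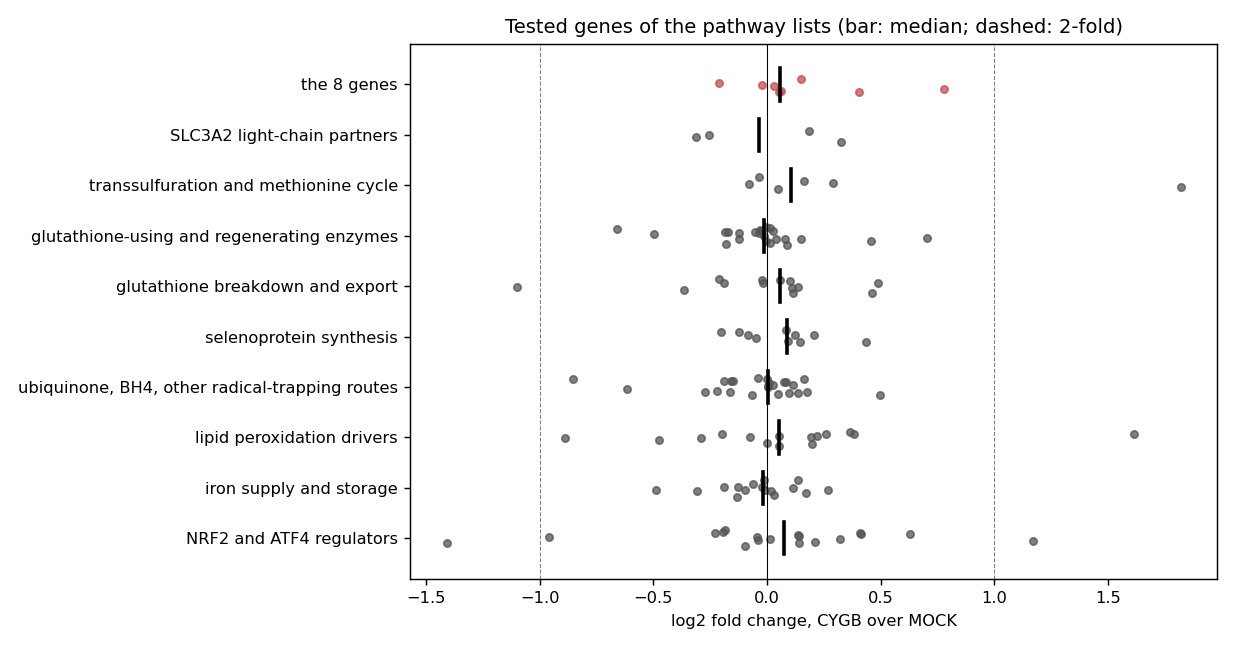
Fitted log2 fold change, CYGB over MOCK (x axis), of the 8 genes (red) and of the 129 tested genes of 9 pathway lists (grey), 1 point per gene, with the median of each row as a black bar and 2-fold changes as dashed lines. The medians stay near 0, and ACSL4, at 1.62, is the point past 2-fold that passed the threshold.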

How the data were processed

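RNA from 3 MOCK and 3 CYGB libraries was made into libraries with a NEBNext Ultra RNA kit, for which no strand setting is stated, and sequenced as paired ends. What the authors deposited is 1 table of unnormalized read counts, with a row per transcript. The submitters' processing notes name hg19, HISAT2, HISAT and DESeq2, yet 99.6% of the positions equal those of GENCODE 29 on GRCh38, which are used here. The counting tool and the division of reads among isoforms are not given in the sources used here. The 21225 transcripts without a gene (18.6 to 19.5% of counts) entered neither library sizes nor tests.

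Counts were summed per gene, filtered with filterByExpr (minimum count 10), scaled by TMM and tested with edgeR 4.0.16 (quasi-likelihood, no block) in R 4.3.3. P-values were adjusted over all genes or transcripts by the Benjamini-Hochberg method. DESeq2 1.42.0 was an alternative. TPM used GENCODE 29 lengths. Pairs of libraries of 1 group differed by far more than sampling noise (chi-square per gene of at least 114). The steps were tested on simulated data. Named besides the 8 genes were their transcripts with at least 10% of a gene's counts in a library or past the threshold, pathway genes past it, and the 4 largest rises and 4 largest falls among separated pathway genes of at least 10 CPM; some other separated transcripts and SLC7A5 were named after their values were seen. Patterns were compared on log2(CPM + 0.5). The members and lists were chosen with earlier results of these data known. Proteins were not analysed here.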

Additional observations from a re-analysis of the deposited data

How the results depend on the processing

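The number of the 8 genes past the threshold of the methods was 0 under all 16 alternatives, namely DESeq2 as the test or only its size factors, edgeR's exact test, a filter at 50 mean counts or none, a replicate block, each library left out, transcripts without a gene included, the most abundant transcript, protein coding transcripts alone and length-scaled counts. SLC3A2, GCLC, GCLM and GSS kept their direction in all 16. Near-zero changes turned sign. Leaving out 1 library gave log2 fold changes of -0.14 to 0.19 for SLC7A11, -0.25 to 0.30 for CHAC1, -0.065 to 0.0081 for GPX4 and -0.013 to 0.12 for AIFM2. By the most abundant transcript, CHAC1 was at -0.48 and GPX4 at 0.058. The cause of these turns was not tested.

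Libraries were not paired by their replicate numbers, since deviations from the group means of same-numbered libraries correlated at 0.0322, 0.00672 and 0.0324. With the replicate number as a block, SLC3A2 had a log2 fold change of 0.83 (unadjusted p = 0.00874, adjusted p = 0.917 by edgeR) and CHAC1 of -0.045, and the transcripts of the 8 genes past the threshold numbered 1 in place of 2, with CHAC1 ENST00000444189 lost.

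That number was also 1 with a mean of at least 50 counts, a filter that removed the CHAC1 transcript, and 2 to 4 with a library left out, with 4 without MOCK replicate 3. Pathway genes past the threshold numbered 2 with DESeq2 and 2 with edgeR's exact test, which added MAT2A, and 1 to 4 with a library left out. There were 4 without CYGB replicate 2, and 2 without MOCK replicate 3 or CYGB replicate 3. The share of all genes or transcripts past the threshold was taken only for the quasi-likelihood fit of the main text. Differences in the share of the most abundant transcript, CYGB minus MOCK, ran with a library left out from -0.088 to 0.11 points for SLC7A11, -0.46 to 9.19 for GCLC, -1.29 to 7.09 for GSS and -30.9 to 4.66 for CHAC1, and that of SLC7A11 was 0.0091 by length-scaled level. Over protein coding transcripts alone the mean TPM was 55.3 for GCLC and 43.9 for GSS. Intervals cover the spread between 3 libraries per group, and counts of minor transcripts were low.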
